A study of Mus musculus with 6 samples.

Results

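The AP-1 transcription factor family was followed in mouse marrow cells selected for green fluorescent protein (GFP) under renin gene control and in the marrow they came from. Its 10 members, Fos, Fosb, Fosl1, Fosl2, Jun, Junb, Jund, Atf3, Batf and Maff, were taken by symbol from the platform annotation, and all 10 were among the 18193 genes measured. The 3 sorted samples held GFP-positive marrow cells, and the 3 presort samples held unsorted marrow from the same pools. Every pool joined femoral marrow of 4 to 5 male and female mice aged 3 to 6 months, hemizygous for Tg(Ren1-GFP)2Kwg, so presort cells carried the transgene as well. Scatter gates took out erythrocytes and debris, only single cells were kept, and the GFP gate passed 0.1% of cells from transgene-negative marrow. Each sample went to 1 Affymetrix array that reads transcripts near the 3' end, and the 3 pools, numbered as the replicates are, came from separate sorts. Values are log2 intensities, and differences are sorted minus presort. With 3 arrays a group, precision is limited by their number. The main test did not pair arrays by pool, so its p-values measure the spread between arrays within each group.

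AP-1 is a pair of basic leucine zipper proteins that binds DNA through its basic regions. Jun proteins pair with each other or with Fos proteins, Fos proteins need a Jun partner, and several ATF, BATF and Maf proteins join or compete for the same partners. Many of these genes are immediate early genes, which cells transcribe soon after a signal without first making new protein. Batf acts with Jun proteins in lymphocytes, and Fos and Jun proteins are used across myeloid and lymphoid cells.

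Of the 10 members 7 rose in sorted cells, 1 fell and 2 did not pass the test. Fosb, Jun, Atf3, Jund, Junb, Fos and Maff rose, Fosl2 fell, and Fosl1 and Batf were not called. A gene was called when its limma p, adjusted by Benjamini-Hochberg over all 18193 genes, was under 0.05. This rule called 14.5% of all genes higher and 18.1% lower in sorted cells, and 44.4% of the calls were rises. Centring each array on its median moved that share to 66.7% and the median of all genes to 0.23, with 7 members still called higher and 1 lower. The median difference was 1.70 over the members and -0.0021 over all genes. All 3 sorted arrays lay above all 3 presort arrays for 7 members and for 20.9% of genes, and below them for 1 member and 23.6% of genes. It follows from this separation that each of the 7 members that rose was higher in all 3 pools, so this adds nothing to the calls. Over all genes 29% were higher in all 3 pools. The members and the lists below were chosen with earlier results of these data known. Their counts beside shares of all genes are therefore descriptions. In bulk RNA fewer cells of a type and less RNA per cell cannot be told apart.

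**Figure D1:**
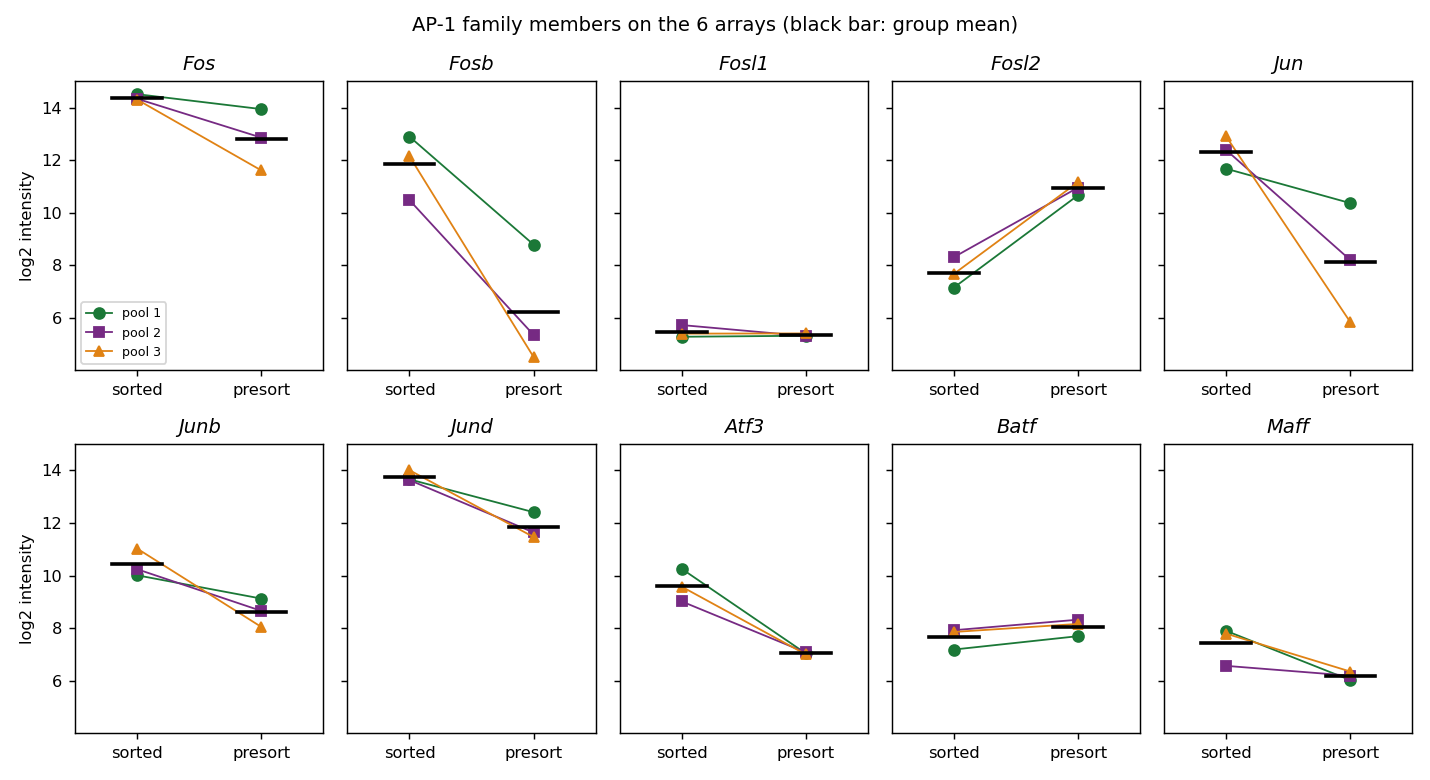
Log2 intensity of each AP-1 member on the 3 sorted arrays (left of each panel) and the 3 presort arrays (right), with lines joining the arrays of 1 pool and black bars at the group means. Fos, Fosb and Jun spread widely over the presort arrays, with Jun between 5.84 and 10.37, whereas Atf3 stayed near 7.03 there.

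The makeup of the samples moved with these differences. B cell markers were called higher for 7 of 7 measured genes, and the mean log2 intensity over this list was 12.60 to 12.73 in sorted and 9.92 to 11.02 in presort samples. Erythroid markers were lower for 7 of 7 (9.70 to 10.50 in sorted, 12.58 to 12.72 in presort samples), neutrophil markers for 8 of 8 (11.24 to 12.06 in sorted, 13.79 to 13.94 in presort samples) and monocyte and macrophage markers for 7 of 7 (7.73 to 8.75 in sorted, 10.41 to 10.94 in presort samples). Fewer markers of other types were called: 1 of 7 T and NK cell genes was lower, 4 of 5 megakaryocyte genes were lower, and of 6 dendritic cell genes 4 were lower and 1 higher. Of 6 stroma and endothelium markers 1 was higher and 1 lower, and the mean over that list was 6.00 to 6.10 in sorted and 6.22 to 6.57 in presort samples. By the brightest genes of each list, the B cell genes Cd79b and Ms4a1 rose by 2.57 and 2.27. The erythroid genes Car2 and Alas2 stood at -1.55 and -1.16, the neutrophil genes Ngp and S100a8 at -0.69 and -0.81, and the monocyte and macrophage genes Csf1r and Ctsb at -2.79 and -1.19. The median difference was -3.04 over the erythroid, -2.39 over the neutrophil and -2.58 over the monocyte and macrophage list. In presort samples Ngp and S100a8 stood near 15.08, the highest value of any gene. Nkg7 and Klrd1 of the T and NK cell list stood at -2.99 and -0.93, and Pf4 and Itga2b of the megakaryocyte list at -1.69 and -1.30, with Klrd1 and Pf4 not called. Flt3 and Irf8 of the dendritic list stood at -0.80 and 0.89, and Cxcl12 and Pecam1 of the stroma and endothelium list at -2.42 and 1.29. RNA quality moved too: the gap between the 3' and 5' probe sets of beta-actin, on the log2 scale, was 3.17, 1.54 and 1.43 in sorted replicates 1, 2 and 3, against 1.11, 0.95 and 0.81 in presort replicates. For Gapdh this gap was 3.84, 2.13 and 2.44 in sorted replicates, against 1.99, 1.61 and 1.75 in presort replicates. The part of marker genes and of RNA quality in the AP-1 differences was not tested beyond the alternatives given with each member.

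Promoters of the 7 members that rose are shown for letters that 5 of them share and that Jun and Jund lack, as the 110 bases before the RefSeq start site on GRCm38.p6, 5′ to 3′ on the gene's strand. Capitals mark TGACG on either strand, which is the core of the cAMP response element (CRE, full form TGACGTCA), and the TATA box TATAAA.
Fos, chr12:85473780-85473889, plus strand: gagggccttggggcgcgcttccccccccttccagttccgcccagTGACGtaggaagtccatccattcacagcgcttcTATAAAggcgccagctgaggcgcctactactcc
Fosb, chr7:19310046-19310155, minus strand: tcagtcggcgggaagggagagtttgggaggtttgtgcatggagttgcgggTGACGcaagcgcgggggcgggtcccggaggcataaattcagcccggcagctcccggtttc
Jun, chr4:95052223-95052332, minus strand: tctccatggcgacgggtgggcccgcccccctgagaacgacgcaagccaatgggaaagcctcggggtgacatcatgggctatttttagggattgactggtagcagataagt
Junb, chr8:84978749-84978858, minus strand: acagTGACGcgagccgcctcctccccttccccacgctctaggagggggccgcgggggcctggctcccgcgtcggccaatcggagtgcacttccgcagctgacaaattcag
Jund, chr8:70697629-70697738, plus strand: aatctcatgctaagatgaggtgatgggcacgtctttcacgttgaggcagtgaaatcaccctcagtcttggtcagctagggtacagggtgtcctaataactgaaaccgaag
Atf3, chr1:191183334-191183443, minus strand: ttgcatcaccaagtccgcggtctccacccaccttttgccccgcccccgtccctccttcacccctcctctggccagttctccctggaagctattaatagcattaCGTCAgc
Maff, chr15:79347410-79347519, plus strand, from 1 of 3 start sites: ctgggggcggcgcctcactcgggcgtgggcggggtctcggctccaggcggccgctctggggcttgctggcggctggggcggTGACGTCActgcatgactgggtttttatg

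TGACG was found on either strand in the full window, 250 bases before to 50 after the start, of 6 of the 9 members with a RefSeq promoter entry and in 20.8% of all 32851 promoter windows. The 6 were Fos, Fosb, Junb, Atf3, Maff and Batf, the last of which did not pass the test. Maff has 3 windows and so more chances of a match. The full CRE, which contains TGACG, was present in Maff and in 1.79% of all windows. The AP-1 site TGACTCA was in none of the 9 members' windows and in 5.20% of all, and the CArG box was in none and in 1.63%. TATAAA was in the windows of Fos and Junb and in 13.6% of all. These are letters in a window and say nothing of binding. Bases further than 250 before the start were not searched, so a motif absent here may lie upstream. For TGACG, the full CRE, the AP-1 site and TATAAA only these exact letters were searched, so variant forms were passed over.

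Fosb, a Fos protein that needs a Jun partner, had 12.90, 10.49 and 12.16 in sorted replicates 1, 2 and 3, against 8.79, 5.35 and 4.51 in presort replicates. Every sorted array lay above every presort array, with sorted replicate 2 the lowest of its group and presort replicate 1 the highest of its own. The rise was 5.63 ± 1.08 (SE, log2; 49.5-fold; limma adjusted p = 0.00461), and by pool it was 4.11, 5.13 and 7.64 in pools 1, 2 and 3. Presort replicates 2 and 3 lay below the median of all probe sets, 6.04, and were not shown to be above background, so the size of the fold rests on dim values. With 50 added to every intensity the rise was 4.66 (adjusted p = 0.0149). The call was lost without pool 3 (4.62, limma adjusted p = 0.0588) and when that beta-actin gap entered the fit as a covariate (4.32, adjusted p = 0.0592).

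Fos, the founding member of the family, stood at 14.52, 14.34 and 14.31 in sorted replicates, against 13.95, 12.86 and 11.61 in presort replicates. The sorted arrays lay close together near the top of the scale, where the highest value of any gene was 15.08, while the presort arrays spanned 2.34. The groups did not overlap, though presort replicate 1 came close to the sorted arrays. The rise was 1.58 ± 0.50 (SE; 2.99-fold; limma adjusted p = 0.0431). By pool it was 0.57, 1.48 and 2.70. This call was fragile: it was kept in 1 of 6 fits with 1 array left out and in 1 of 3 with 1 pool left out, and the rise was 0.98 without presort replicate 3. With the beta-actin covariate it was 1.26 (adjusted p = 0.246).

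Fosl2, also called Fra-2, was the member that fell. It had 7.16, 8.31 and 7.68 in sorted replicates, against 10.67, 10.96 and 11.17 in presort replicates. All sorted arrays lay below all presort arrays, and the presort arrays ranged over only 0.50. The difference was -3.22 ± 0.28 (SE; 9.31-fold lower in sorted cells; limma adjusted p = 8.63e-05), with -3.52, -2.65 and -3.49 in the 3 pools. A second, dimmer Fosl2 probe set did not show it. Its values were 6.26, 6.43 and 6.27 in sorted and 6.33, 6.53 and 6.43 in presort replicates, a difference of -0.11 ± 0.11 (adjusted p = 0.556 over probe sets). The fall was -1.66 with the mean of both probe sets, and it was called in every fit in which the brighter probe set or that mean stood for the gene. Which probe set reads the transcript made in these cells was not tested.

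Fosl1, or Fra-1, stood at 5.28, 5.73 and 5.40 in sorted replicates, against 5.32, 5.31 and 5.41 in presort replicates. The groups overlapped and the gene was among the dim genes, by mean intensity, that 1 alternative fit left out. The difference was 0.13 ± 0.14 (SE; limma adjusted p = 0.580; 95% interval -0.19 to 0.44). Its second probe set was dimmer and stood at -0.22 ± 0.11 (adjusted p = 0.204 over probe sets).

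Among the Jun proteins, which can pair with themselves as well as with Fos proteins, all 3 rose. Jun had 11.68, 12.39 and 12.91 in sorted replicates, against 10.37, 8.20 and 5.84 in presort replicates. The presort arrays were spread over 4.53, the sorted ones over 1.23, and the groups did not overlap. The rise was 4.19 ± 0.98 (SE; 18.2-fold; limma adjusted p = 0.0122), which was 1.31 in pool 1, 4.19 in pool 2 and 7.07 in pool 3. Presort replicate 3 lay below the median of all probe sets, 6.04, and was not shown to be above background. The fold and the pool 3 difference thus rest in part on a dim value. With 50 added to every intensity the rise was 3.81 (limma adjusted p = 0.0304). The second Jun probe set gave 12.37, 11.86 and 12.0002 in sorted and 9.67, 7.44 and 5.82 in presort replicates. Its rise was 4.43 ± 0.83 (adjusted p = 0.00580 over probe sets), and its presort arrays stood in the same order. The order of the sorted arrays differed between the probe sets. The rise was 2.75 without pool 3 (adjusted p = 0.0467), and the call was lost without pool 2 (adjusted p = 0.0878), with an intensity trend and robust prior (0.0515) and with the beta-actin covariate (0.0579).

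Junb, which often opposes Jun in the control of cell growth, had 10.01, 10.24 and 11.02 in sorted replicates, against 9.12, 8.65 and 8.04 in presort replicates. The groups were apart, with the widest gap in pool 3. The rise was 1.82 ± 0.33 (SE; 3.53-fold; limma adjusted p = 0.00352), with 0.89, 1.59 and 2.98 in the 3 pools, and it was called under all 20 alternatives.

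Jund, the Jun protein that most cells make without stimulation, had 13.66, 13.63 and 14.01 in sorted replicates, against 12.41, 11.64 and 11.46 in presort replicates. Again presort replicate 1 was the highest of its group. The rise was 1.93 ± 0.25 (SE; 3.81-fold; limma adjusted p = 0.000590), with 1.25, 1.99 and 2.55 by pool. The second probe set of Jund was dim, at 5.28 to 5.55 in sorted and 5.12 to 5.62 in presort replicates, and its difference was 0.041 ± 0.15 (adjusted p = 0.891 over probe sets). With the mean of both probe sets Jund rose by 0.99.

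Atf3, a stress-induced ATF protein that pairs with Jun proteins, had 10.26, 9.01 and 9.58 in sorted replicates, against 7.03, 7.07 and 6.998 in presort replicates. Its presort arrays were nearly equal, and its sorted arrays stood well above them with a spread of 1.24. The rise was 2.58 ± 0.28 (SE; 5.99-fold; limma adjusted p = 0.000235), with 3.22, 1.94 and 2.58 in the 3 pools. It was called under all 20 alternatives, with adjusted p from 2.68e-05 to 0.00971.

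Maff, a small Maf protein that lacks a domain to activate transcription, had 7.89, 6.56 and 7.79 in sorted replicates, against 6.02, 6.19 and 6.35 in presort replicates. Sorted replicate 2 lay only slightly above the presort arrays, which were near the median of all probe sets, 6.04. The rise was 1.23 ± 0.33 (SE; 2.35-fold; limma adjusted p = 0.0222), with 1.88, 0.37 and 1.44 by pool. The call was kept in 1 of 6 fits with 1 array left out and in 1 of 3 with 1 pool left out, and with the beta-actin covariate the rise was 0.84 (adjusted p = 0.202).

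Batf had 7.18, 7.92 and 7.85 in sorted replicates, against 7.69, 8.32 and 8.16 in presort replicates. The groups overlapped, yet each sorted array lay below the presort array of its own pool, by -0.51, -0.40 and -0.31. The difference of -0.41 ± 0.24 (SE; limma adjusted p = 0.259; 95% interval -0.96 to 0.14) was not called. With the replicate number as a block, which compares the arrays within pools, it was called as lower (adjusted p = 0.0301). With the arrays centred on their medians Batf stood at -0.18.

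**Figure D2:**
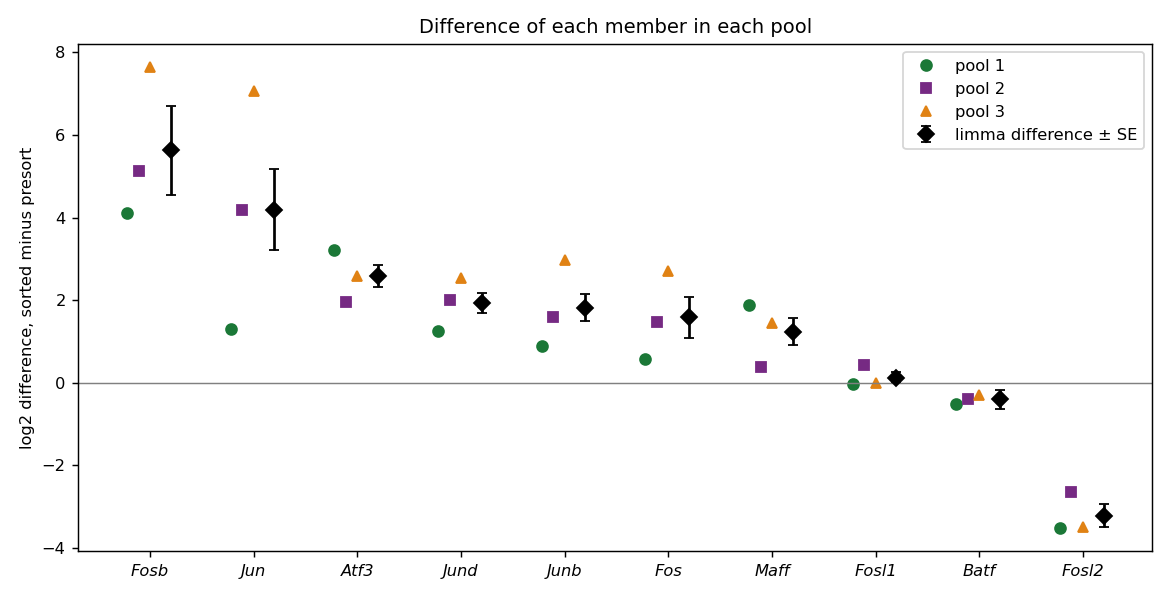
Log2 difference, sorted minus presort, of each AP-1 member in pools 1, 2 and 3 (coloured markers) and in the limma fit over all 6 arrays (black diamonds with SE). Jun spans 1.31 to 7.07 over the pools, while Atf3 and Fosl2 keep to 1.94 to 3.22 and -3.52 to -2.65.

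The presort arrays differed from each other far more at Jun, Fosb and Fos than at most genes. Over the 3 presort arrays Jun ranged over 4.53 and Fosb over 4.28, which were ranks 3 and 6 among the 18193 genes, and Fos over 2.34 (rank 33). With 50 added to every intensity, which weighs dim values less, the ranges were 3.68 for Jun and 2.76 for Fosb. Junb ranged over 1.08 and Jund over 0.95, more than 98.7% and 98.0% of genes. The median presort range was 0.79 over the members and 0.25 over all genes, and 4 of 10 members, against 1.65% of genes, spanned at least 1. Atf3 was at the other end, with a range of 0.073 that exceeded only 7.28% of genes. Each presort array is 1 sample of 1 pool, so these are values without a test.

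Presort replicate 1 was the highest and replicate 3 the lowest for Fos, Fosb, Jun, Junb and Jund. That pattern held for 5 of 10 members and for 17.1% of all genes, and for 5 of the 7 members called higher against 30.1% of all genes called higher. The same 5 members had their smallest difference in pool 1 and their largest in pool 3, as 19.2% of the genes called higher did. The differences share the presort arrays, so both patterns rest on the same values. Presort replicate 1 exceeded replicate 3 by at least 1 at 4 members (Jun 4.53, Fosb 4.28, Fos 2.34 and Junb 1.08), and a gap of this size in either direction was found in 1.15% of genes. Between presort replicates 1 and 2 it was found at 3 members, Fosb (3.44), Jun (2.17) and Fos (1.09), and in 0.945% of genes. Between presort replicates 2 and 3 it was found at 2 members, Jun (2.36) and Fos (1.25), and in 0.346% of genes. Fosb differed by 0.84 between replicates 2 and 3.

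B cell markers stood in the same order, with list means of 11.02, 10.08 and 9.92 in presort replicates 1, 2 and 3 and a median excess of 1.11 in replicate 1 over replicate 3. Ms4a1 and Cd79b, the brightest of them, had 12.26, 11.55 and 11.29, and 12.19, 11.56 and 11.14, in these presort replicates. The excess of Jun, Fosb and Fos was larger than this median and that of Junb (1.08) and Jund (0.95) a little smaller. Neutrophil and erythroid lists were nearly level over the presort replicates, with list means of 13.86, 13.79 and 13.94, and 12.60, 12.72 and 12.58. Other lists had replicate 1 lowest: the megakaryocyte means were 7.66, 9.13 and 8.78, with a median of -1.07 for replicate 1 minus replicate 3, and the monocyte and macrophage means were 10.41, 10.82 and 10.94, with a median of -0.37. The beta-actin gap stood in the order of Jun, at 1.11, 0.95 and 0.81, and the Gapdh gap did not, at 1.99, 1.61 and 1.75. Their part in the presort spread was not tested.

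**Figure D3:**
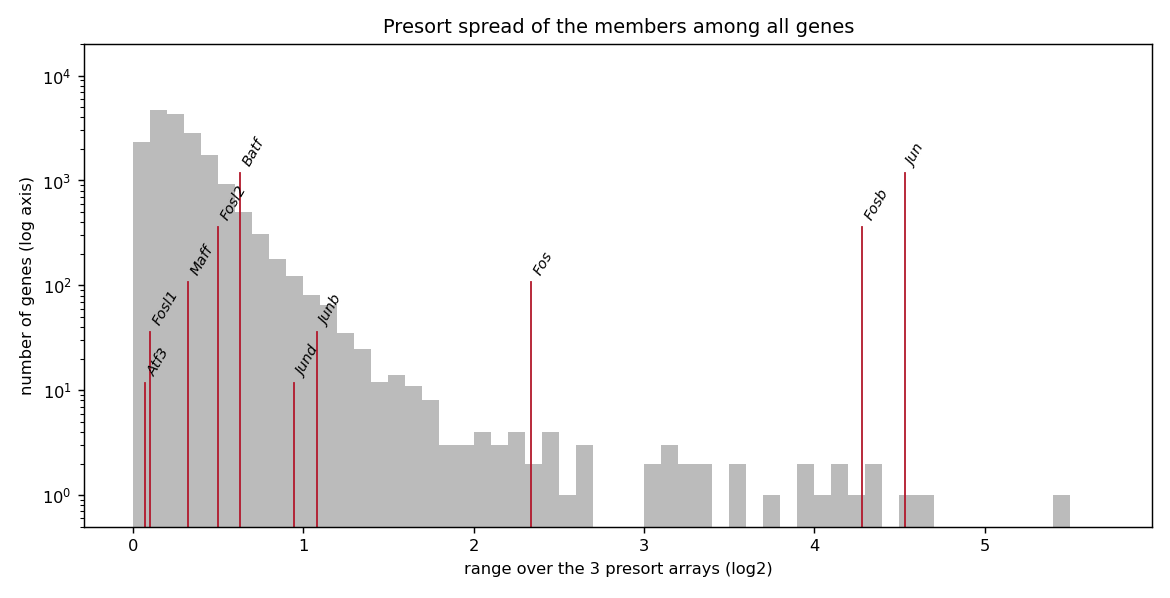
Number of genes (log axis) by the range of log2 intensity over the 3 presort arrays, with red lines at the AP-1 members. Jun at 4.53, Fosb at 4.28 and Fos at 2.34 lie in the far tail, and Atf3 at 0.073 lies at the left edge.

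Among all named genes the largest presort ranges included other factors of early responses and genes of other kinds. Ppbp, a platelet chemokine, ranged over 5.48 with presort replicate 1 far below the other two. Cxcl2, a chemokine that attracts neutrophils, ranged over 4.61 with replicate 3 the low one. Egr1, a zinc finger factor of the immediate early class, had 12.97, 12.81 and 13.03 in sorted replicates, against 11.78, 8.59 and 7.42 in presort replicates, the order of Jun. Trim12a ranged over 4.15 with replicate 1 highest as well. Hspa1b, an inducible heat shock protein, ranged over 4.14 with presort replicate 2 the highest, at 11.47 against 7.33 and 8.59. Fam135a ranged over 4.35 with replicate 1 the lowest. Of these genes Egr1, Jun and Fosb were called between the groups, and Ppbp, Cxcl2, Fam135a, Trim12a and Hspa1b were not.

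The genes most like a member were found by the root mean square difference of log2 values over the 6 arrays, after each gene was centred on its own mean. Closest to Jun was Egr1, at 0.57, followed by Pfn2 (0.99), Egr2 (1.01), Klhl14 (1.04) and Dusp2 (1.04). Closest to Fosb were Egr1 (1.19), Jun (1.25), Cd69 (1.32), Il2ra (1.36) and Sertad4 (1.43). The profile of Fosl2 had much closer neighbours: Sirpb1a (0.093), Fcgr3, an Fc receptor of myeloid and NK cells (0.10), Svip (0.11), Ltb4r1, a leukotriene receptor (0.11), and Pilra (0.13). Fcgr3, for example, had 7.49, 8.85 and 8.05 in sorted replicates, against 11.04, 11.32 and 11.36 in presort replicates. These profiles share arrays, groups and pools, and the distances are descriptions.

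**Figure D4:**
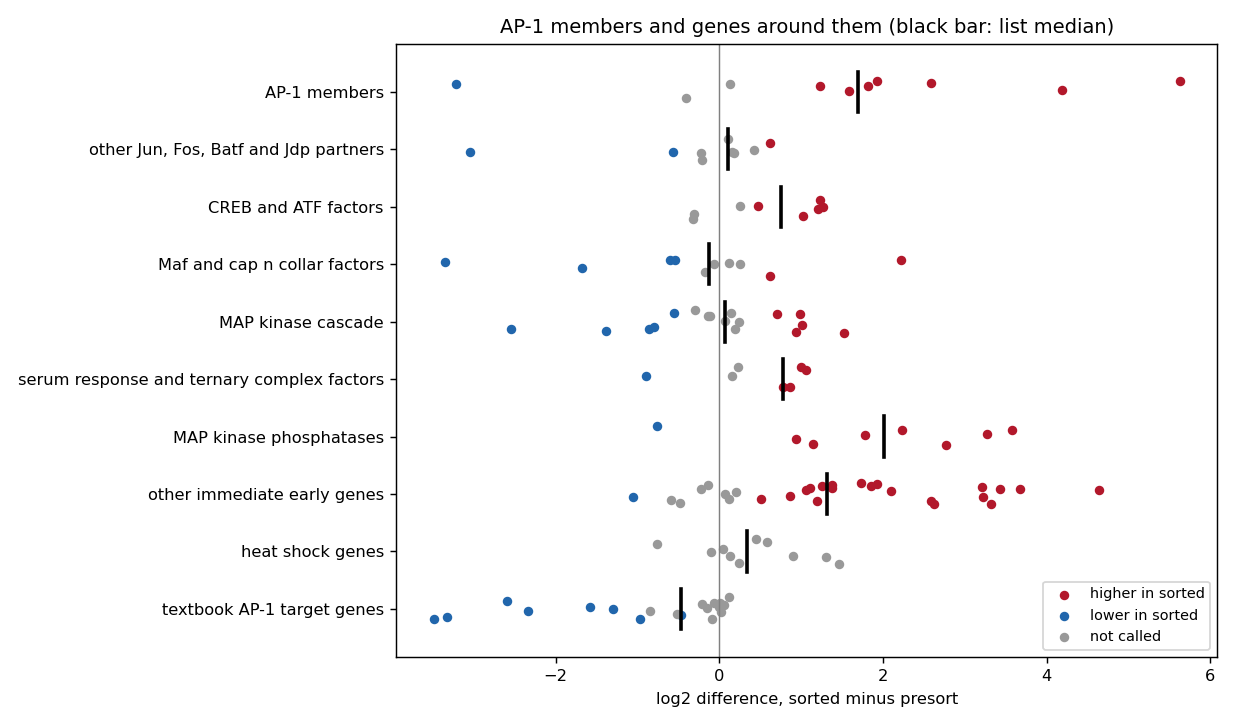
Log2 difference, sorted minus presort, of every measured gene of the AP-1 family and of 9 lists around it, with red points called higher in sorted cells, blue points lower, grey points not called, and black bars at list medians. MAP kinase phosphatases and immediate early genes lie mostly to the right, with medians of 2.01 and 1.32, and AP-1 target genes to the left, with a median of -0.47.

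Genes that act with or around AP-1 moved in both directions. Of the other partners of Jun, Fos and Batf 1 of 9 rose and 2 fell (median 0.10). This is near the shares of all genes, 14.5% higher and 18.1% lower. Jdp2, a repressor that pairs with Jun proteins, fell much as Fosl2 did, with 7.26, 8.28 and 7.17 in sorted replicates, against 10.56, 10.58 and 10.72 in presort replicates (-3.05 ± 0.28, SE; limma adjusted p = 0.000104). Batf3, a factor of dendritic cells, fell by 0.56, with every array below the median of all probe sets, 6.04. Its difference was -0.33 with arrays centred on their median (adjusted p = 0.0512), and its call was also lost without pool 2 and with the beta-actin covariate (both adjusted p = 0.068). Atf4, of the amino acid and unfolded protein responses, rose by 0.62, and Atf2 was not called at 0.15. The rise of Atf4 was not called without pool 2 or without pool 3. Of the CREB and ATF factors 5 of 8 rose and none fell (median 0.75), with Crem, whose products include the repressor ICER, at 1.27, Creb3l2 at 1.23, Atf6 at 1.21 and the bright genes Creb1 and Creb3 at 1.03 and 0.48. Without pool 3 the rises in this list were 3. The call of Creb3 was lost without pool 2 (adjusted p = 0.0999), without pool 3 (0.188), without presort replicate 2 or 3 or sorted replicate 3, and without probe sets named _x_at or _s_at (0.34, adjusted p = 0.128).

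Maf and cap'n'collar factors, the partners of Maff, divided into 2 that rose and 4 that fell of 10 (median -0.12). Over all genes 14.5% rose and 18.1% fell. Nfe2, which pairs with small Maf proteins in erythroid cells and megakaryocytes, fell by 3.35, with 7.84 to 8.37 in sorted and 11.40 to 11.50 in presort samples. Mafg, another small Maf protein, fell by 1.68, while Mafk rose by 0.61. Bach2, a repressor of B cells, rose by 2.22 and its relative Bach1 fell by 0.60. Without pool 3 the list had 1 rise and 2 falls, and without pool 1 it had 1 rise. Mafk lost its call without either of these pools and with the beta-actin covariate (0.33), and Bach1 lost its own without pool 2 or 3 and with arrays centred (-0.37).

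In the MAP kinase cascade, which relays signals to AP-1, 5 of 17 rose and 5 fell (median 0.06), beside 14.5% and 18.1% of all genes. Mapk11 and Mapk13 encode p38 kinases: Mapk11 rose by 1.53 and Mapk13 fell by 2.54. Map2k3, an upstream kinase of p38, fell by 1.39 while Map2k6, which acts at the same step, rose by 1.01. The bright genes Mapk14 and Map2k1 stood at -0.86, called, and -0.30, not called. Without pool 3 only 2 of the rises were called. On the list of serum response and ternary complex factors 4 of 7 rose and 1 fell (median 0.78), beside the same shares of all genes. Elk3 stood at 1.05, Mrtfb at 1.001, Elk4 at 0.87 and Mrtfa at -0.90. Without pool 3 the rises and falls of this list were 3 and 0. Mrtfa was not called without pool 2 or 3 and with arrays centred on their median (-0.67), and Elk4 was not called without pool 2 or 3.

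MAP kinase phosphatases, which switch these kinases off, rose for 7 of 8 measured genes and fell for 1 (median 2.01). Of all genes 14.5% rose and 18.1% fell. Dusp10 had 10.09, 8.95 and 9.59 in sorted replicates, against 6.61, 5.74 and 5.52 in presort replicates, a rise of 3.58 ± 0.35 (SE; limma adjusted p = 0.000151). Dusp2 rose by 3.27, Dusp5 by 2.77 and Dusp6 by 2.23, and the bright Dusp1 by 0.93. Dusp8, chosen after its value was seen, was the one that fell, at -0.76. Without pool 3 the rises were 4, and with the beta-actin covariate Dusp1 was not called (0.78).

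Of 28 other immediate early genes 20 rose and 1 fell (median 1.32), beside 14.5% and 18.1% of all genes. Of the 28, 8 spanned at least 1 over the presort arrays, as did 1.65% of all genes. Cd69, a surface protein of recently activated lymphocytes, rose by 4.64, Egr1 by 3.67 ± 0.94 (SE; limma adjusted p = 0.0187), Rgs1 by 3.43 and Egr3 by 3.32. The bright members Btg1 and Nfkbia, the inhibitor of NF-kappaB, rose by 1.11 and 0.86. The call of Egr1 was lost without pool 2 or pool 3 and with the beta-actin covariate, with 50 added to intensities or with an intensity trend and robust prior. The gene that fell, chosen after its value was seen, was Myc at -1.06. In 15 of the 28, presort replicate 1 was highest and replicate 3 lowest, against 17.1% of all genes and 30.1% of all genes called higher. The counts of rises were 15 without pool 3, 20 without pool 1 and 15 with the beta-actin covariate.

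Heat shock genes gave no call by limma among 10 measured (median 0.34), beside 32.6% of all genes called in either direction. Of the 10, 1 gene had an unadjusted p under 0.05 and 3 were called with the replicate block. The bright chaperone gene Hspa8 stood at 0.45 and Hsp90aa1 at 0.05. With the beta-actin covariate 3 of the 10 were called higher, among them Hspa8 (0.83), which was also called with the replicate block (0.45) and with arrays centred on their median (0.67). The presort order of Jun was seen for none of the 10 and for 17.1% of all genes.

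Of 19 measured genes named in textbooks as AP-1 targets none was called higher and 8 were lower, beside 14.5% and 18.1% of all genes. The median was -0.47 (limma, 10 with an unadjusted p under 0.05 in either direction, and 8 called with the replicate block). Several others were dim: Il2 had means of 4.67 in sorted and 4.68 in presort samples, and Il6 4.41 and 4.47. Both lie below the median of all probe sets, 6.04, and were not shown to be above background. A missing rise says little for such genes. Mmp9, the gelatinase of neutrophils, stood at -3.49, with 9.64 to 10.48 in sorted and 13.29 to 13.55 in presort samples. The lamin gene Lmna stood at -3.33, the urokinase receptor gene Plaur at -2.59 and the heme oxygenase gene Hmox1 at -2.34. The bright Cd44 and Vim stood at -1.58 and -0.97. Mmp9 and Itgax stand in the neutrophil and dendritic marker lists as well.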

How the data were processed

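The deposited values are linear intensities that the submitters' processing notes credit to RMA, whose version is not given in the sources used here. All 6 arrays share 1 distribution (9.71 to 38492.08), so total RNA cannot be compared. Log2 was taken with no pseudocount. Of 45101 probe sets 34945 carried 1 symbol and were used, and each of 18193 genes took its brightest probe set by mean over 6 arrays; 14 probe sets read the 10 members. Detection calls were not used here.

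Sorted was tested against presort by limma (version 3.58.1, R 4.3.3; lmFit, eBayes, two-sided, Benjamini-Hochberg over all genes, threshold 0.05) without a filter. This main fit held no term for the pool. Presort and sorted samples with the same replicate number in their labels were treated as 1 pool for the differences by pool and the replicate block. Deviations from the group means correlated at 0.39, 0.20 and -0.03 across genes in pools 1, 2 and 3. The members and lists were chosen with earlier results of these data known. The text names every member, the 4 largest called differences and 2 brightest genes of each list, the 5 genes most like the 3 members that differed most and the 8 largest presort ranges, passing over unnamed transcripts. Of the list genes 13 had no probe set matched and were not analysed here. Steps were tested on simulated data. Figures were drawn with matplotlib 3.10.9. Promoters come from RefSeq on GRCm38.p6, where Fosl1 had no entry. Alternatives were the replicate block, arrays or pools left out, other probe set rules, scalings, an offset of 50, dim genes left out, other priors and weights, and a beta-actin covariate.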

Additional observations from a re-analysis of the deposited data

How the results depend on the processing

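Junb and Atf3 were called in the same direction under all 20 alternatives, and the loss of calls of other members is grouped by setting here. With the beta-actin gap as a covariate 3 members were called higher, and Fos stood at 1.26, Fosb at 4.32, Jun at 4.43, Maff at 0.84 and Batf at 0.074, none of them called. With an intensity trend and robust prior the calls of Fos (1.58) and Jun (4.19) were lost at the same differences, and with an offset of 50 those of Fos (1.57) and Maff (0.87). In the fit over all probe sets Fos missed at 1.58 (adjusted p = 0.0535), and the second probe sets of Fosl2 (-0.11) and Jund (0.041) were not called. Fosl1, never called, was at -0.045 with the mean of probe sets, -0.22 at its second probe set, -0.0036 without sorted replicate 2 and -0.023 without pool 2, and its presort range was 0.19 with arrays centred on their median and 0.046 with the offset, which also took the presort range of Fosb to 2.76. The replicate block called Batf as well (-0.41), which made 2 members lower, and changed no other call of a member. With 1 array or pool left out, 4 to 6 members were called higher (4 without pool 3) and 1 lower. The differences ran from 0.98 to 2.15 for Fos, 4.62 to 6.92 for Fosb, -0.023 to 0.22 for Fosl1, 2.75 to 5.63 for Jun, 0.91 to 1.66 for Maff, 1.24 to 2.28 for Junb, 1.62 to 2.27 for Jund, 2.26 to 2.90 for Atf3, -0.59 to -0.17 for Batf and -3.52 to -2.94 for Fosl2. Of the 116 genes in the 9 lists 44 were called higher, and 28 to 45 with 1 array or pool left out (28 without pool 3). Over all genes 2629 were called higher, 1544 without pool 3 and 5162 with arrays centred on their median. With the mean of probe sets Jdp2 was at -1.68, Crem at 0.49, Creb1 at 0.53, Creb3 at 0.30, Mapk11 at 0.89, Mapk14 at -0.51, Mrtfb at 0.57, Egr3 at 1.65, Nfkbia at 1.58, Vim at -0.53, Lmna at -1.35 and Cxcl12 at -1.54, and each kept its call. Of other named genes Atf2 was at -0.047 without _x_at and _s_at probe sets, and Hsp90aa1 at -0.0018 with the mean of probe sets and from -0.024 (without sorted replicate 3) to 0.11 with arrays or pools left out. Apart from fewer arrays where some were left out, the cause was not tested. No member's signal over background is known, so changes of dim genes may be understated.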
